A study of Mus musculus with 2 samples.

Results

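The Wnt pathway genes of sorted mouse skin cells are described here: 57 of the 50559 genes in the count tables, chosen by name as Wnt ligands, Frizzled and Lrp receptors, secreted antagonists, R-spondins, receptor ubiquitin ligases, destruction complex genes, beta-catenin and the nuclear factors Lef1 and Tcf7. The series holds 1 group of 2 bulk RNA-seq libraries, replicate 1 and replicate 2, and was made to set steady-state RNA beside nascent RNA, which was not analysed here. Both libraries came from dorsal skin of mice of the genotype Polr2b.fl.fl.GFP; K14Cre at postnatal day 21, when hair follicles rest (telogen). Live cells positive for GFP were sorted after collagenase and trypsin digestion, and the labels call them keratinocytes. Both libraries thus carry floxed Polr2b, a gene of RNA polymerase II, and Cre driven by the keratin 14 promoter of the basal epidermis. No library of another genotype, hair cycle stage or gate was measured, so levels have no control to be read against. The labels do not say from how many animals each library came. Each SD and p-value thus covers only the spread or the counting error of these libraries.

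Wnt proteins are secreted ligands that are acylated by Porcn before they leave the cell. They bind a Frizzled receptor together with Lrp5 or Lrp6, which stops the destruction complex of Axin and Apc from marking beta-catenin (Ctnnb1) for degradation, and beta-catenin then acts with Lef1 and other TCF factors in the nucleus. In the hair follicle this pathway drives the start of a new growth phase and is held low in telogen. Secreted antagonists of the Sfrp, Dkk and Wif families limit it, while R-spondins raise it by removing Rnf43 and Znrf3, ubiquitin ligases that clear Frizzleds from the membrane.

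The libraries held 36692204 and 33489967 counts, and they stood apart from each other in several ways that touch the results below. Xist, the RNA of the inactive X chromosome, had 112587 and 11 counts in replicates 1 and 2. The Y-linked Uty had 0 and 2394 counts and Ddx3y 0 and 1618. Replicate 1 thus held RNA of female type and replicate 2 of male type, so the libraries came from different animals. In every difference between the libraries given below, sex cannot be told apart from other sources. Basal keratinocyte markers were high, with Krt5 at 3997 CPM in replicate 1 and 6249 in replicate 2. The fibroblast marker Col1a1, at 5588 and 2620 CPM, stood above Krt5 in replicate 1 and below it in replicate 2. The label of keratinocytes thus does not cover all the RNA measured. All 6 basal markers and all 4 spinous markers were higher in replicate 2, with summed levels of 9797 and 14044 CPM and of 3009 and 6058 CPM in replicates 1 and 2. All 8 fibroblast markers were lower in replicate 2, at a sum of 13114 and 6501 CPM, and so were all 5 mural markers, at 340.2 and 189.5 CPM. Myeloid markers summed to 6589 and 7247 CPM, so that the sorted fraction held abundant RNA of dermal and myeloid type. In bulk RNA, fewer cells of a type and less RNA per cell cannot be told apart.

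Of the 57 genes, 45 were detected, meaning at least 1 CPM (the count scaled to a common library total) in both libraries. Among all genes counted, 15833 or 31.3% were detected. Genes are set against each other in TPM, which also divides by gene length, and single genes are followed between libraries as CPM. Beta-catenin stood highest at 428 ± 33.0 TPM (SD, n = 2), above 98.3% of detected genes. By mean level it was followed by the co-receptors Lrp6 at 95.7 ± 1.20 TPM and Lrp5 at 80.3 ± 7.90 TPM. The ligand Wnt10a at 78.0 ± 23.8 TPM and the antagonist Sostdc1 at 71.2 ± 14.3 TPM came next. Lrp5, at 74.7 and 85.9 TPM in replicates 1 and 2, and Wnt10a, at 61.2 and 94.8 TPM, changed order between the libraries. Sostdc1, at 61.1 and 81.3 TPM, stood below both in each library, though close to Wnt10a in replicate 1. In replicate 1 Sfrp4, Sfrp1, Fzd7 and Sfrp2, at 71.8, 71.1, 65.7 and 64.7 TPM, stood above Wnt10a and Sostdc1. In replicate 2 they stood below both. The median over the 57 genes was 7.71 TPM in replicate 1 and 6.61 TPM in replicate 2. Over all genes of the table, many of them without counts, the median was 0.171 and 0.118 TPM.

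**Figure D1:**
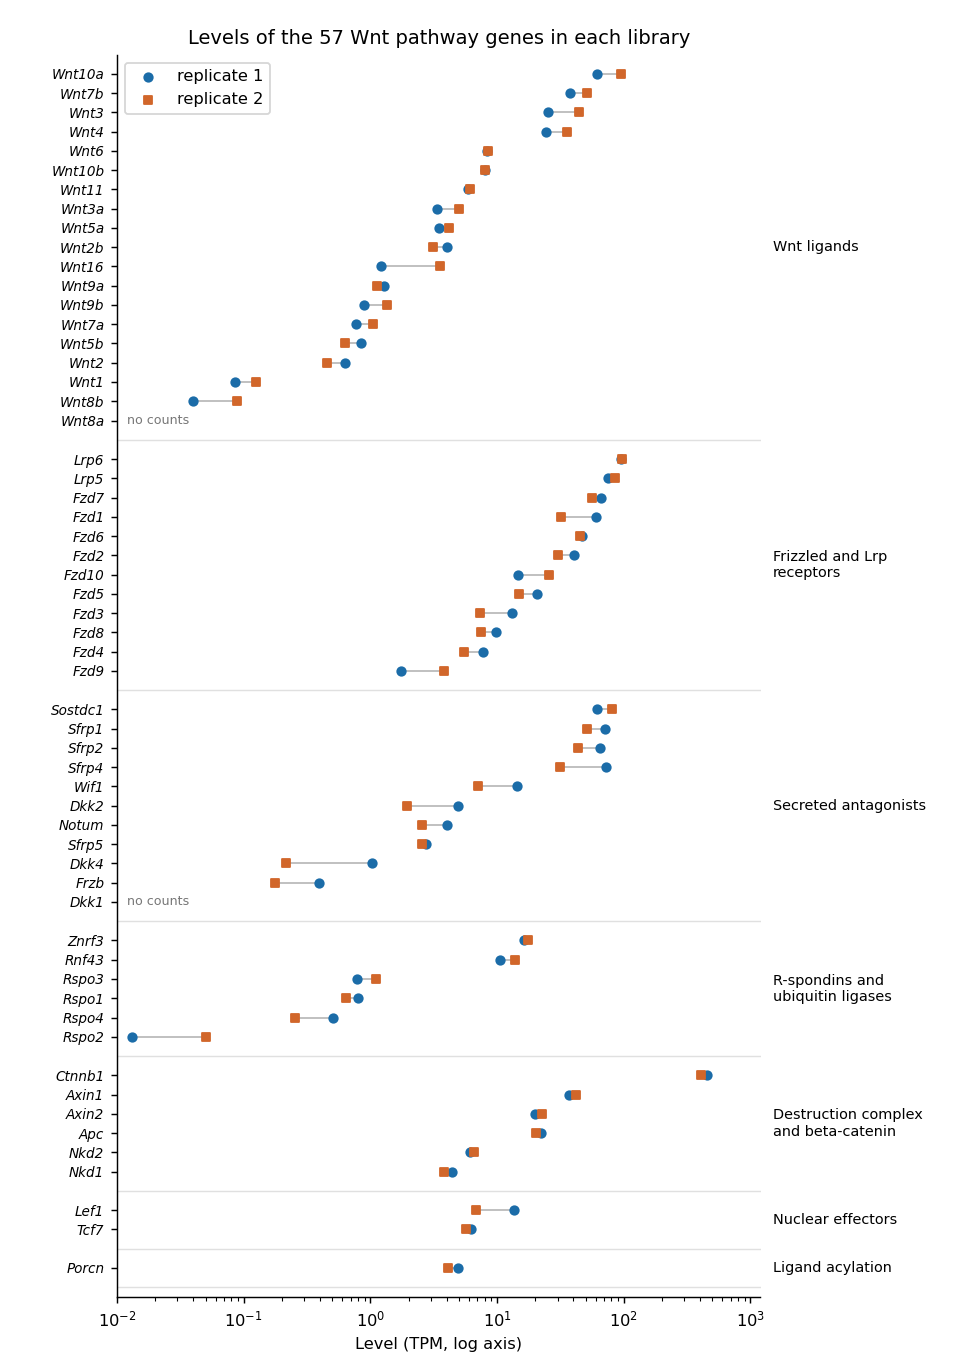
Level of each of the 57 Wnt pathway genes in TPM (log axis), with circles for replicate 1 and squares for replicate 2, grouped by role and sorted by mean level within a role. Beta-catenin (Ctnnb1) lies furthest right, 4 Wnt ligands stand apart from the other 15, and Wnt8a and Dkk1 had no counts.

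Between the libraries, 15 of the 52 members with at least 10 counts were higher in replicate 2 and 19 were lower, using an exact binomial test (two-sided) and Benjamini-Hochberg adjustment over all 23690 tested genes. These shares, 28.8% and 36.5%, compare with 16.9% higher and 27.2% lower over all tested genes. In either direction 44.1% of all tested genes were called. With TMM scaling the members' counts were 17 higher and 16 lower, and those over all tested genes went from 3993 higher and 6443 lower to 5374 and 5069. With scaling to library totals, 15 of the 45 detected members were higher and 18 lower. Among all detected genes, which carry more counts, the shares on that scaling were 22.1% and 32.2%. Counted by role, 8 of 16 tested ligands were higher and 1 lower, whereas 2 of 10 Frizzleds were higher and 7 lower, and 1 of 10 tested antagonists was higher and 7 lower. Taken as log2 of replicate 2 over replicate 1, the median ratio was 0.28 for the ligands, -0.40 for the Frizzleds and -0.58 for the antagonists, beside -0.07 over all tested genes. The binomial test covers counting error and compares these 2 libraries, not conditions. The exact test of edgeR also included the spread shared by all genes, 22.7% as a coefficient of variation. That spread was estimated from the same 2 libraries, so the differences tested also set it. A gene that differs about as much as most others can hardly pass, so edgeR gives no separate verdict on it. The test called 0 of the 52 members at an adjusted p under 0.05 and 6 at an unadjusted p under 0.05. Over the whole table it called 66 of 23690 genes, or 0.279%.

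Of the 19 Wnt ligands, 14 were detected, and 4 of them held most of the ligand RNA. Wnt10a, which is expressed in the epidermis and hair follicle and is mutated in ectodermal dysplasias, had 48.4 CPM in replicate 1 and 74.9 in replicate 2. It was higher in replicate 2 by 1.55-fold (95% interval 1.46 to 1.64), with an adjusted p of 3.89e-44 by the exact binomial test and of 0.974 by edgeR. Wnt7b, a ligand of hair follicle keratinocytes, had 66.5 CPM in replicate 1 and 90.6 in replicate 2, a difference of 1.36-fold (95% interval 1.29 to 1.44). Wnt3, a classical activator of beta-catenin signalling, had 34.6 CPM in replicate 1 and 61.0 in replicate 2, a difference of 1.76-fold (95% interval 1.64 to 1.89). Wnt4, an epidermal Wnt that can act through canonical and other routes, had 37.5 CPM in replicate 1 and 54.5 in replicate 2, a difference of 1.45-fold (95% interval 1.35 to 1.56). All 4 were thus higher in replicate 2 beyond counting error, and none of the 4 passed edgeR's test.

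Scaled by length, these ligands stood in the order Wnt10a, Wnt7b, Wnt3 and Wnt4. Wnt10a, at 61.2 and 94.8 TPM in replicates 1 and 2, did not overlap with Wnt7b at 37.3 and 50.9 TPM. Wnt7b, Wnt3 at 25.1 and 44.4 TPM and Wnt4 at 24.3 and 35.4 TPM overlapped over the libraries, each with its neighbour. Within each library they kept this order. Wnt4 was clear of the next ligand, Wnt6, at 8.31 and 8.51 TPM. Of the summed ligand TPM, Wnt10a held 32.7% in replicate 1 and 35.3% in replicate 2, and the 4 together held 79.2% in replicate 1 and 83.9% in replicate 2. The same 4 thus led the ligands in both libraries, of a summed level of 187 TPM in replicate 1 and 269 TPM in replicate 2.

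The ligand sum was higher in replicate 2 by a factor of 1.41. The basal keratinocyte and bulge marker sums were higher by nearly the same factor, 1.43 each. Single basal markers ran from 1.03-fold for Trp63 to 1.56-fold for Krt5, and 4 of the 6 bulge markers were lower in replicate 2. The summed CPM of the 19 ligands equalled 2.50% in replicate 1 and 2.47% in replicate 2 of the summed basal markers, and 8.15% in replicate 1 and 5.72% in replicate 2 of the summed spinous markers. Whether the share of keratinocyte RNA plays a part in the ligand difference was not tested.

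**Figure D2:**
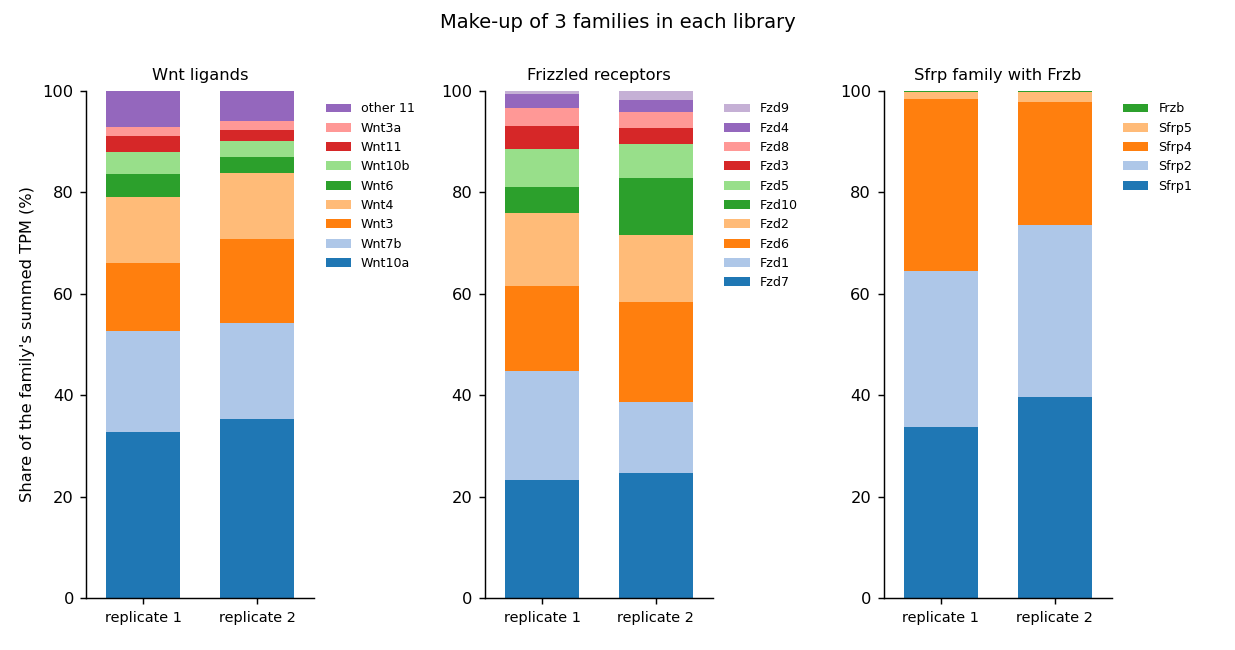
Share of each gene in the summed TPM of its family (%), stacked for replicate 1 and replicate 2, for the Wnt ligands (left), Frizzled receptors (middle) and Sfrp family with Frzb (right). Wnt10a, Wnt7b, Wnt3 and Wnt4 fill 79.2% and 83.9% of the ligand bars, while Fzd10 takes a larger and Fzd1 a smaller part of the Frizzled bar in replicate 2.

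The middle tier of ligands held Wnt6, Wnt10b, Wnt11, Wnt5a, Wnt3a and Wnt2b. Wnt6 and Wnt10b, both expressed in skin epithelium, had 7.63 and 7.79 CPM and 11.1 and 11.0 CPM in replicates 1 and 2. Wnt11, which acts mainly through polarity pathways, had 7.93 and 8.18 CPM. None of these 3 passed the binomial test, and the 95% intervals of their ratios lay between 0.859 and 1.22 for Wnt6 and Wnt11 and between 0.861 and 1.15 for Wnt10b. Wnt5a, the main ligand of beta-catenin-independent signalling, was made at 13.8 and 16.4 CPM and was higher in replicate 2 by 1.19-fold (95% interval 1.05 to 1.34). Wnt3a, the close relative of Wnt3, stood lower at 3.73 and 5.52 CPM and was higher in replicate 2 by 1.48-fold (95% interval 1.18 to 1.86). Wnt2b was the only ligand called lower in replicate 2 by the test, at 5.83 and 4.48 CPM, with a binomial adjusted p of 0.0329 that became 0.103 with TMM scaling.

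Among the low ligands, Wnt16 had the largest ratio of all 45 detected members. Wnt16, a ligand of the epidermis and bone, had 55 and 148 counts in replicates 1 and 2, or 1.499 and 4.42 CPM, a difference of 2.95-fold (95% interval 2.15 to 4.09). Its edgeR adjusted p of 0.186 was the smallest of all members. Wnt9b had 75 and 105 counts and was higher in replicate 2 by 1.53-fold (95% interval 1.13 to 2.09). Wnt9a and Wnt7a had 65 and 52 counts and 37 and 46 counts and did not pass the test. The 5 ligands that were not detected were Wnt5b with 41 and 28 counts, Wnt2 with 21 and 14 counts, Wnt1 with 3 and 4 counts, Wnt8b with 2 and 4 counts and Wnt8a with none. For Wnt8a, 0 counts allow a level of 0.0818 CPM at most in replicate 1 and of 0.0896 in replicate 2. Levels of Wnt1 and Wnt8b were of the size of this floor of 3 counts, so their presence was not resolved at this depth.

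All 12 receptors were detected, and 11 passed 10 CPM in both libraries. Lrp6 and Lrp5, the co-receptors that carry the Wnt signal to Axin, had 359 and 364 CPM and 156 and 179 CPM in replicates 1 and 2. Lrp6 differed by 1.02-fold (95% interval 0.991 to 1.04) and did not pass the test, although it did with TMM scaling at an adjusted p of 2.60e-07. Lrp5 was higher in replicate 2 by 1.15-fold (95% interval 1.11 to 1.19). By length both co-receptors stood above every Frizzled in both libraries.

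Fzd7, Fzd1, Fzd6 and Fzd2 led the Frizzleds. Fzd7, a receptor for canonical ligands in many epithelia, had 127 CPM in replicate 1 and 109 in replicate 2. Fzd6, a receptor known for orienting hair follicles through planar cell polarity, had 85.0 CPM in replicate 1 and 80.6 in replicate 2, and its difference of 1.05-fold (95% interval 1.00 to 1.11) did not pass the test. By length Fzd7 at 65.7 and 56.2 TPM overlapped with Fzd1 at 60.3 and 32.1 TPM, and Fzd1 with Fzd6 at 47.1 and 44.8 TPM. Fzd7 stood above Fzd1 in each library, while Fzd1 stood above Fzd6 only in replicate 1. Fzd2 at 40.6 and 30.1 TPM came after Fzd6 and did not overlap with it.

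The Frizzleds were mostly lower in replicate 2, and among the 7 called lower Fzd1 and Fzd3 had the largest folds. Fzd1 had 107 CPM in replicate 1 and 56.6 in replicate 2, a difference of 1.88-fold (95% interval 1.78 to 1.99) with an adjusted p of 1.08e-117 by the exact binomial test and 0.779 by edgeR. Fzd3, a polarity receptor, had 67.1 and 37.4 CPM, a difference of 1.79-fold (95% interval 1.67 to 1.92). Fzd4, Fzd5 and Fzd2 were lower in replicate 2 by 1.42-fold, 1.40-fold and 1.35-fold, from 22.5, 58.2 and 59.4 CPM in replicate 1. Fzd8 had 13.1 and 10.1 CPM and was lower by 1.30-fold (95% interval 1.13 to 1.5002), and Fzd7 was lower by 1.17-fold (95% interval 1.12 to 1.22).

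Fzd10 and Fzd9 went the other way. Fzd10, a receptor through which Wnt7b can signal, had 17.6 CPM in replicate 1 and 31.1 in replicate 2, a difference of 1.76-fold (95% interval 1.60 to 1.95). Fzd9 was the lowest Frizzled with 55 and 109 counts, and was higher in replicate 2 by 2.17-fold (95% interval 1.56 to 3.06). Fzd10 held 5.20% in replicate 1 and 11.3% in replicate 2 of the summed Frizzled TPM, and Fzd1 held 21.4% in replicate 1 and 14.1% in replicate 2. These directions were kept with TMM and DESeq2 scaling, under which 2 Frizzleds were higher and 7 lower as well.

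The ratio of ligand to Frizzled RNA within a library does not depend on how the libraries are scaled to each other. Summed ligand TPM over summed Frizzled TPM was 0.664 in replicate 1 and 1.18 in replicate 2. From summed counts, with no length scaling, it was 0.439 in replicate 1 and 0.807 in replicate 2, so it was below 1 in both libraries on that scale and higher in replicate 2 on both. Summed ligand TPM over that of the Sfrp family with Frzb was 0.886 in replicate 1 and 2.09 in replicate 2. The Frizzled sum equalled 5.70% in replicate 1 and 3.06% in replicate 2 of the basal marker sum, and 4.26% in replicate 1 and 6.60% in replicate 2 of the fibroblast marker sum. The part of either cell type in these ratios was not tested.

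**Figure D3:**
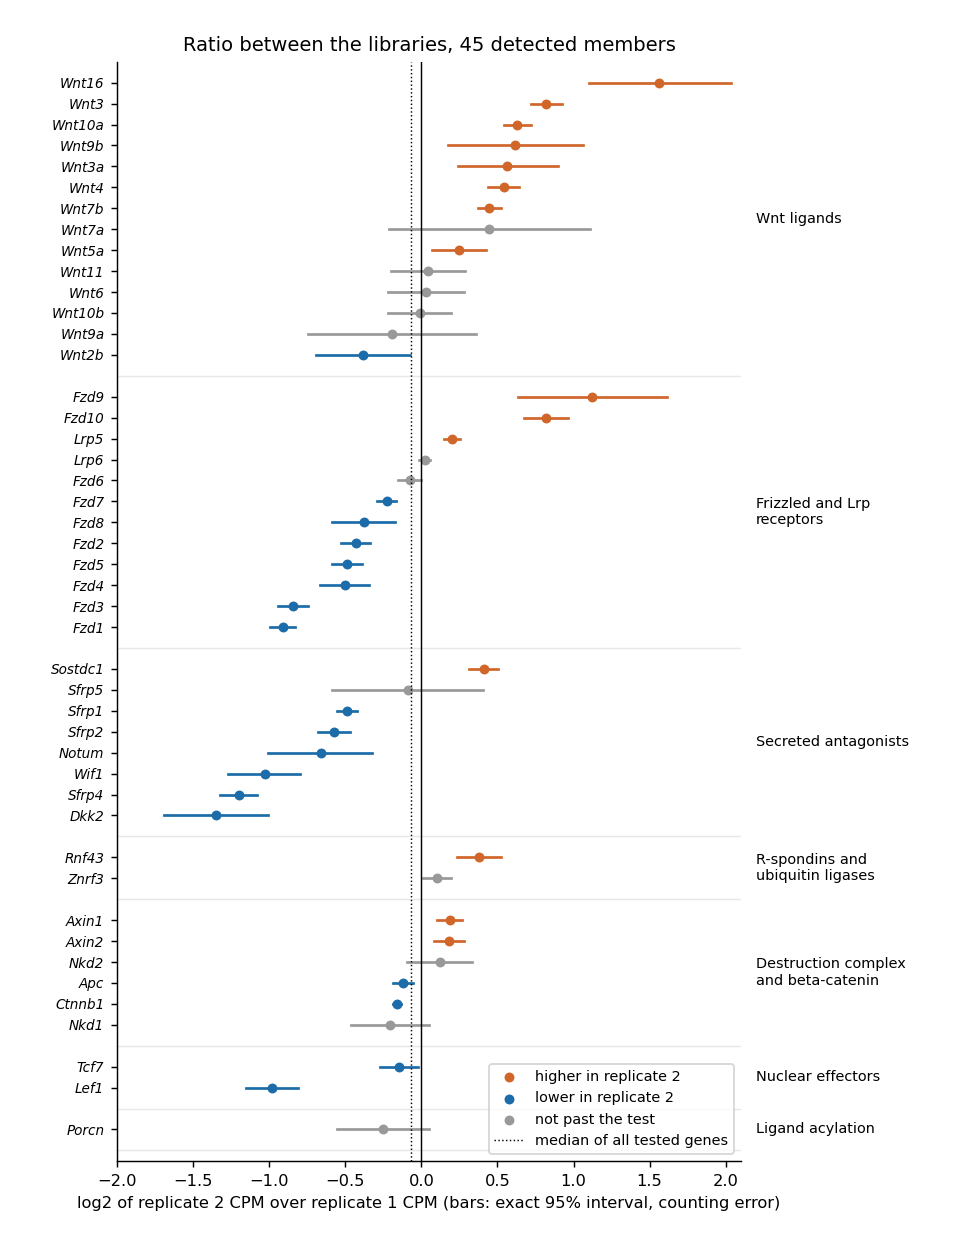
log2 of the CPM in replicate 2 over the CPM in replicate 1 for the 45 detected members, grouped by role, with exact 95% intervals for counting error as bars. The dotted line is the median of all tested genes, at -0.07, and ligands lie mostly to the right of 0, and Frizzleds, antagonists and Lef1 mostly to the left.

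Promoter windows are shown for the highest member in each direction that differed by more than 1.5-fold and had an entry in the RefSeq table, Wnt3 for those higher in replicate 2 and Fzd1 for those lower. Each runs from 250 bases before to 50 bases after the transcription start, 5′ to 3′ on the strand of the gene, in RefSeq coordinates of GRCm38.p6. That build is not the mm39 on which reads were counted. Capitals mark CTTTGTT or CTTTGAT, on either strand, which are forms of the sequence bound by TCF and LEF factors.
Wnt3, chr11:103773925-103774224, plus strand: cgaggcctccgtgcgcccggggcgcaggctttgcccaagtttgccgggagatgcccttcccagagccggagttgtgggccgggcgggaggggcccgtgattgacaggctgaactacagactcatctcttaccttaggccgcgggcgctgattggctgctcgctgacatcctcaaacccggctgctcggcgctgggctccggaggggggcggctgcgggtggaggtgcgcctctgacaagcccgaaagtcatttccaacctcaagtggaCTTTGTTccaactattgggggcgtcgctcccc
Fzd1, chr5:4758167-4758466, minus strand: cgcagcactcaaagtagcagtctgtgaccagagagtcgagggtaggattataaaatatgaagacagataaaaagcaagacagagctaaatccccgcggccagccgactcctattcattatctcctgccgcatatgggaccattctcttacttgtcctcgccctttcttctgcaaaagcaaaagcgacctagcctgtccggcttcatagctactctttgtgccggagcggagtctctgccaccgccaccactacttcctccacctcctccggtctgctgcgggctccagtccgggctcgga
The Wnt3 window held 1 match, CTTTGTT, starting at base 19 after the start site, and the Fzd1 window held none. Among the 45 windows of the 36 members with an entry, 5 held a match, in Wnt3, Fzd7, Wnt11, Wnt5b and Dkk1. Of all 32851 windows, 3.73% held CTTTGAT and 5.85% held CTTTGTT, or 9.33% held at least 1 of them, so 5 of 45 is near the general share. The windows of members were rich in G and C, with a median GC content of 66.7%, beside 52.7% over the windows of all kinds of gene. A match is a run of letters and does not show binding.

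The secreted antagonists were led by Sostdc1 and 3 genes of the Sfrp family, and 8 of 11 were detected. Sostdc1, a BMP and Wnt antagonist of the follicle and other skin appendages, had 43.2 CPM in replicate 1 and 57.3 in replicate 2. It was the only antagonist higher in replicate 2, by 1.33-fold (95% interval 1.24 to 1.42). Sfrp1, a secreted Frizzled-like protein that binds Wnts and is a marker of the telogen bulge, had 129 CPM in replicate 1 and 92.0 in replicate 2, a difference of 1.40-fold (95% interval 1.34 to 1.47). By length Sostdc1 at 61.1 and 81.3 TPM, Sfrp1 at 71.1 and 50.9 TPM, Sfrp2 at 64.7 and 43.5 TPM and Sfrp4 at 71.8 and 31.3 TPM overlapped, each with the next. Their order differed between the libraries, except that Sfrp1 stood above Sfrp2 in both. Sfrp4 led the Sfrp family in replicate 1 and came behind Sfrp1 and Sfrp2 in replicate 2.

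Sfrp2 and Sfrp4, both abundant in dermal fibroblasts, were lower in replicate 2. Sfrp2 had 52.3 CPM in replicate 1 and 35.1 in replicate 2, a difference of 1.49-fold (95% interval 1.38 to 1.60). Sfrp4 had 51.0 CPM in replicate 1 and 22.2 in replicate 2, a difference of 2.30-fold (95% interval 2.11 to 2.51), with an adjusted p of 3.80e-88 by the exact binomial test and 0.454 by edgeR. In the same libraries the fibroblast markers summed to 13114 and 6501 CPM, with each of the 8 lower in replicate 2. Mural markers summed to 340.2 and 189.5 CPM, with each of the 5 lower. These sums were lower by 2.02-fold for fibroblast and 1.80-fold for mural markers. The sum of Sfrp2 and Sfrp4 equalled 0.787% in replicate 1 and 0.881% in replicate 2 of that fibroblast sum. The part of fibroblast or mural RNA in the difference was not tested.

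Dkk2 had the largest fold of the detected antagonists, and Wif1 came after Dkk2 and Sfrp4. Dkk2, which blocks the Lrp co-receptors and is made by skin fibroblasts, had 276 and 99 counts in replicates 1 and 2, or 7.52 and 2.96 CPM, and was lower in replicate 2 by 2.54-fold (95% interval 2.02 to 3.23). Wif1, which binds Wnts outside the cell, had 13.1 and 6.39 CPM and was lower by 2.04-fold (95% interval 1.74 to 2.41). Notum, an enzyme that removes the lipid from Wnts, had 5.34 and 3.37 CPM and was lower by 1.58-fold (95% interval 1.25 to 2.01). Sfrp5, a close relative of Sfrp1, had 77 and 66 counts, and its difference of 1.06-fold (95% interval 0.756 to 1.503) did not pass the test.

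The 3 antagonists that were not detected were Dkk4, Frzb and Dkk1. Dkk4, an inhibitor of developing appendages and a beta-catenin target, had 21 and 4 counts and was lower in replicate 2 by 4.79-fold (95% interval 1.62 to 19.2). Frzb had 17 and 7 counts and did not pass the test. Dkk1, a dermal papilla and palmoplantar inhibitor, had 0 counts in both libraries, under the same floor as Wnt8a. Of 5 dermal papilla markers 4 were detected, at a summed level of 61.1 and 49.8 CPM, most of it from Prdm1, which other skin cells also express, at 49.7 and 41.4 CPM. Sox2 had 3 and 10 counts, Crabp1 53 and 53 counts, Corin 159 and 73 counts and Alx4 202 and 144 counts.

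R-spondin RNA was scarce, while the ligases on which R-spondins act were measured well. None of the 4 R-spondins was detected. They had 28 and 36 counts for Rspo3, 22 and 16 counts for Rspo1, 20 and 9 counts for Rspo4 and 2 and 7 counts for Rspo2, and none of those tested passed the test. Znrf3 had 50.1 CPM in replicate 1 and 53.8 in replicate 2, and Rnf43 had 19.4 CPM in replicate 1 and 25.2 in replicate 2. Rnf43 was higher in replicate 2 by 1.30-fold (95% interval 1.17 to 1.44). Znrf3 differed by 1.07-fold (95% interval 1.01 to 1.15) and did not pass the test, although it did with TMM scaling at an adjusted p of 6.65e-04.

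Genes of the destruction complex differed by less than 1.2-fold between the libraries. Ctnnb1, which also links cadherins to actin at cell junctions, had 659 CPM in replicate 1 and 590.2 in replicate 2, a difference of 1.12-fold (95% interval 1.10 to 1.14) that passed the binomial test. The scaffolds Axin1 and Apc had 61.8 and 70.2 CPM and 120.3 and 111 CPM in replicates 1 and 2, with differences of 1.14-fold (95% interval 1.07 to 1.20) and of 1.09-fold (95% interval 1.04 to 1.14) in opposite directions. The Apc difference did not pass with TMM scaling, at an adjusted p of 0.285.

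Axin2, the feedback inhibitor that beta-catenin signalling induces in most tissues, was present at 44.9 CPM in replicate 1 and 50.9 in replicate 2, and was higher in replicate 2 by 1.13-fold (95% interval 1.06 to 1.21). By length it stood at 20.1 and 22.8 TPM, overlapping with Apc at 22.1 and 20.4 TPM and below Axin1 at 37.0 and 42.1 TPM. Nkd1 and Nkd2, feedback inhibitors that bind Dishevelled, had 7.96 and 6.90 CPM and 9.84 and 10.7 CPM and did not pass the test. In all, 2 of these 6 genes were higher, 2 lower and 2 did not pass.

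Of the nuclear factors, Lef1 and Tcf7 were both lower in replicate 2 by the binomial test. Lef1, which activates Wnt targets in hair germ and matrix and is also expressed in melanocytes, fibroblasts and T cells, had 24.7 CPM in replicate 1 and 12.5 in replicate 2. It was lower in replicate 2 by 1.97-fold (95% interval 1.75 to 2.22), with an adjusted p of 4.18e-31 by the exact binomial test and 0.737 by edgeR. Tcf7, known from T cells and also made in skin, had 31.9 CPM in replicate 1 and 28.9 in replicate 2, a difference of 1.11-fold (95% interval 1.02 to 1.21) with a binomial adjusted p of 0.0471 that became 0.405 with TMM scaling. Of 6 T cell markers 1 was detected, Thy1, which fibroblasts also express, at 34.1 and 22.3 CPM, and the list summed to 35.4 and 23.9 CPM. Thy1 was lower in replicate 2 by 1.53-fold (95% interval 1.40 to 1.68). Cd8a, also on the list, had 14 and 12 counts, and neither it nor Cd3e passed the test. The defining markers Trac, Cd3d, Cd3g and Cd3e had 0 counts in both libraries, 3 and 0 counts, 0 and 9 counts and 29 and 32 counts. Melanocyte markers summed to 123.9 and 92.0 CPM, with 5 of 6 lower in replicate 2. Most of that sum came from Mitf, at 95.9 and 77.3 CPM. Pmel had 485 and 291 counts, Dct 374 and 154, Tyrp1 121 and 27, Tyr 35 and 12 and Mlana 13 and 8. The part of melanocyte, fibroblast or T cell RNA in the Lef1 difference was not tested.

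Porcn, the acyltransferase that every Wnt needs for secretion, was low at 5.75 CPM in replicate 1 and 4.84 in replicate 2. Its difference of 1.19-fold (95% interval 0.964 to 1.47) did not pass the test.

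**Figure D4:**
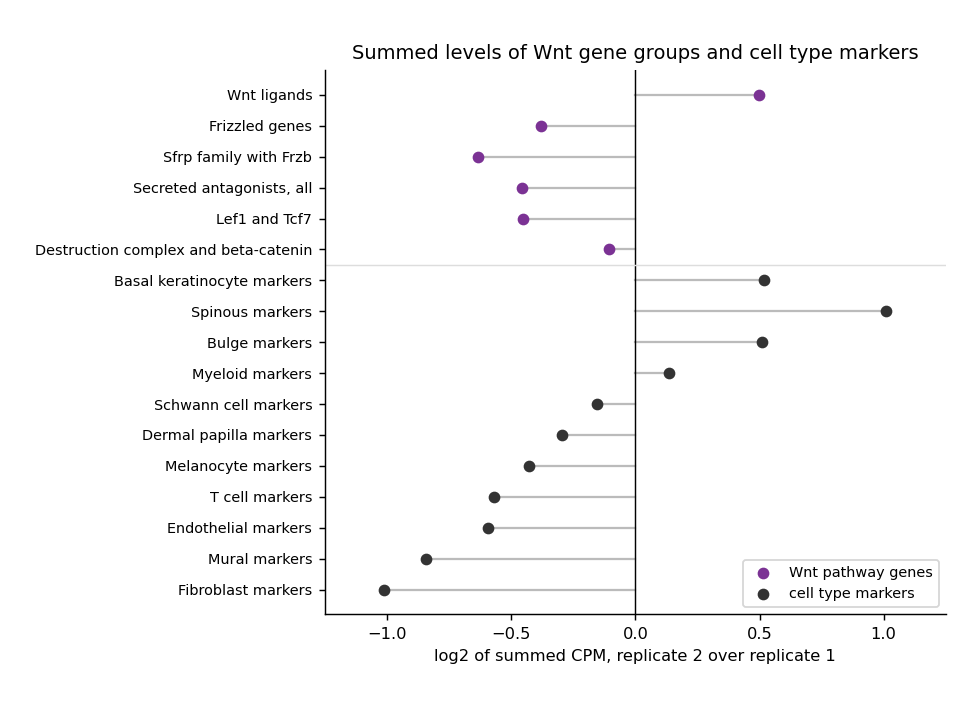
log2 of the summed CPM in replicate 2 over that in replicate 1 for 6 groups of Wnt pathway genes (above the line) and 11 lists of cell type markers (below). The ligand sum lies beside the basal keratinocyte and bulge sums on the right. The Frizzled and Sfrp sums lie on the left, as do the fibroblast, mural, endothelial, T cell, melanocyte, dermal papilla and Schwann cell sums. The bulge sum is carried by Krt15, with 4 of its 6 markers lower in replicate 2.

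Of 62 further genes of the pathway, 58 were detected. In replicate 2, 18 were higher, 24 lower and 20 were not called by the binomial test, and the median log2 ratio was -0.03. These counts are 29.0% and 38.7% of the 62, beside 16.9% and 27.2% over all tested genes. With TMM or DESeq2 scaling 25 were higher and 18 lower, so the more frequent direction depends on the scaling. The highest by length were the targets Myc at 236 ± 62.7 TPM and Cd44 at 228 ± 35.4 TPM, the kinases Csnk1d at 112 ± 0.844 TPM and Csnk1a1 at 112 ± 4.30 TPM, and the corepressor Tle3 at 107 ± 11.99 TPM. Both kinases, Myc and Cd44 also serve other pathways. Wls, which carries Wnts to the cell surface, had 176 CPM in replicate 1 and 171 in replicate 2 and did not pass the test.

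The R-spondin receptors were abundant although their ligands were scarce. Lgr5, the marker of bulge and hair germ stem cells, had 131 CPM in replicate 1 and 86.8 in replicate 2, a difference of 1.51-fold (95% interval 1.44 to 1.58). Lgr4 had 147 and 90.9 CPM, a difference of 1.62-fold (95% interval 1.55 to 1.69). Lgr6, a marker of the upper follicle and interfollicular epidermis, had 108 and 109 CPM and did not pass the test, although it did with TMM scaling at an adjusted p of 0.00851.

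Among TCF factors the most abundant was outside the chosen 57. Tcf7l2 had 71.6 CPM in replicate 1 and 47.9 in replicate 2 and Tcf7l1, the repressor of resting follicle stem cells, had 29.7 and 17.2 CPM. Of the summed TPM of these 4 factors, Tcf7l2 held 50.5% in replicate 1 and 52.4% in replicate 2, and Lef1 held 24.9% in replicate 1 and 19.6% in replicate 2. All 4 were lower in replicate 2 by the binomial test (Tcf7 not with TMM scaling), with Lef1 and Tcf7l1 beyond 1.5-fold, at 1.97-fold and 1.73-fold (95% interval 1.56 to 1.92).

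Besides Lgr4, Lgr5 and Tcf7l1, another 9 of these further genes passed the test beyond 1.5-fold at a mean of at least 1 CPM. Tnfrsf19, a receptor and Wnt target of the resting follicle, had 113 and 171 CPM and was higher in replicate 2. Lrp4, which binds Sostdc1, was higher too, at 123 and 193 CPM. The other 7 were lower in replicate 2. Reck and Adgra2, which together present Wnt7 ligands to Frizzleds, had 36.8 and 16.0 CPM and 23.4 and 14.8 CPM. The proteoglycan Gpc3 had 72.4 and 41.7 CPM and the Wnt5a receptor Ror2 had 10.9 and 5.02 CPM. Dkk3, Prickle2 and Tle1 had 87.0 and 51.3 CPM, 92.0 and 59.8 CPM and 57.9 and 32.4 CPM. Their folds ran from 1.54 for Prickle2 to 2.30 for Reck. By this rule 2 of the 58 further genes with a mean of at least 1 CPM were higher and 10 lower, beside 3.95% higher and 12% lower among all 16523 tested genes with that mean. With no limit on the mean they were 3 and 11 of 62, beside 4.42% and 12.8% of all tested genes. Of these 62 genes edgeR called 1, Shisa3, which was singled out after its values were seen: it had 27 counts in replicate 1 and 0 in replicate 2, at least 8.21-fold lower against a floor of 3 counts, with an edgeR adjusted p of 0.00737.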

How the data were processed

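RNA of live GFP-positive cells was depleted of ribosomal RNA and sequenced as paired reads of 150 bases, per the labels' protocols. The deposited files hold raw counts per gene, made with featureCounts on mm39, per the submitters' processing notes, and the gene length in bases. Not given in the sources used here are the aligner, annotation, strand setting and treatment of multi-mapped reads. Exons of 11 members overlap a gene on the other strand in GENCODE M21 (GRCm38), among them Ctnnb1, Wnt7b, Lef1, Axin2 and Sfrp2, and reads of such pairs may be mixed.

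CPM used the total of all counts, and TPM the deposited length. Genes with at least 10 counts in total were tested between libraries with an exact binomial test (two-sided), adjusted over all 23690 by Benjamini-Hochberg. No quasi-likelihood fit was possible, since 1 group has no contrast. edgeR's exact test was the alternative that adds the spread between libraries. Its common dispersion came from an intercept-only fit to the same 2 libraries, so it is not an independent check. An exact two-sided sign-flip test over 2 libraries cannot go below p = 0.5, so levels have no p-value. Medians of log2 ratios used a pseudocount of 0.5 CPM. Intervals (Clopper-Pearson, 95%) and the floor of 3 counts cover counting error only. On simulated data the binomial test was tried with counting noise only, and edgeR's test with a smaller spread than in these libraries. Those runs thus do not show how either test performs at the spread seen here. Alternatives were other scalings, filters, pseudocounts, detection limits and each library alone.

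The members and lists were chosen with earlier results of these data known. Every member is accounted for. Of the further pathway genes, the 5 highest by TPM, those past the test beyond 1.5-fold at a mean of 1 CPM or more, the Lgr genes, Wls, Tcf7l1 and Tcf7l2 are named. Of the list genes, 3 older or duplicate names were not in the files. Software was Python 3.11.15, numpy 2.4.6, pandas 2.3.3, scipy 1.17.1, matplotlib 3.10.9, R 4.3.3, edgeR 4.0.16 and DESeq2 1.42.0.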

Additional observations from a re-analysis of the deposited data

How the results depend on the processing

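The number of detected members, 45, was 47 at 0.5 CPM, 34 at 5 CPM, 43 at 1 TPM and 46 in each library alone. The between-library counts of members, 15 higher and 19 lower, were 17 and 16 with TMM or DESeq2 scaling, which moved the median log2 ratio of all tested genes by 0.06 and 0.07, and 15 and 18 with no filter. The 18 higher and 24 lower of the further genes were 25 and 18 with TMM or DESeq2 scaling. Over all genes the split moved from 3993 higher and 6443 lower to 5374 and 5069 with TMM, and to 5494 and 4977 with DESeq2 size factors. With edgeR's exact test 0 members were higher and 0 lower, and of the 62 further genes 0 were higher and 1 lower, because that test adds the spread between libraries. No library can be left out of a comparison of the 2 libraries, so those counts and ratios have no such value. No paired analysis was possible because the series has 1 group.

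Among the members, Wnt10b turned from -0.01 to 0.0644 (TMM), 0.0705 (DESeq2) and 0.0673 (edgeR), and Fzd6 from -0.08 to 0.00598 (DESeq2). Of the further genes named, Wls turned to 0.0366 (TMM), 0.0429 (DESeq2) and 0.0367 (edgeR), and Csnk1a1 to 0.00159 (DESeq2). The median of the destruction complex, -0.00275, turned to 0.0719 (TMM) and 0.0781 (DESeq2). TMM and DESeq2 scaling each removed the binomial calls of Apc, Tcf7 and Wnt2b and added Lrp6 and Znrf3.

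The antagonist median of -0.58 was -0.76 with a pseudocount of 0.1 CPM and -0.46 with 2 CPM, and the median of the R-spondins and ligases, 0.10, was 0.21 with no filter. As CPM per kilobase, with no rescaling of each library to a common sum, the median levels were 1.39 for ligands, 11.8 for receptors, 1.52 for antagonists, 0.336 for R-spondins and ligases, 8.61 for the destruction complex, 3.25 for Lef1 and Tcf7 and 1.82 for Porcn, on a smaller scale by construction. Keeping only members with 10 or more counts, they were 4.16 TPM for ligands, 7.25 TPM for antagonists and 0.955 TPM for R-spondins and ligases. Without length scaling, Wnt10a held 20.7% of ligand counts instead of 34.0%, behind Wnt7b, and Sfrp1 held 57.8% of Sfrp counts instead of 36.7%. Depth limits the R-spondins, Wnt1, Wnt8a, Wnt8b, Dkk1, Dkk4 and Frzb, which had few or no counts.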
